A study of Mus musculus with 6 samples.

Results

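Replication-independent histone variants are histones that can be made without DNA replication, and the genes taken here lie outside the large histone gene clusters. The members were the 10 genes of the deposited table whose symbol was H1f0, H2afx, H2afz, H2afv, H2afy, H2afy2, H2afj, H3f3a, H3f3b or Cenpa, and all 10 were found among 33924 listed genes. The rows were taken by symbol and not by a measured value, though the list of members was chosen with earlier results of these data known.

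RNA was sequenced from RPE/choroid, the retinal pigment epithelium scraped from the eyecup together with the vascular layer beneath it, of 3 young and 3 aged mice. The mice were untreated C57BL/6J, a common inbred laboratory strain, and the labels give no engineered allele. Young mice were 1 to 2 months old. For aged mice the sample titles give 20 to 24 months and the age field gives 22 to 24 months. The labels list all 6 mice as male, whereas the methods describe mice of both sexes and a slightly older young group, and both eyes of a mouse made up a sample. The libraries were depleted of ribosomal RNA and enriched for poly(A) RNA. The values used here are the authors' mean normalized counts over all 6 libraries, so a value joins both ages. No spread between mice could be given, and the difference between the ages was not analysed here.

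Canonical histones are made from many clustered genes during S phase, when DNA is replicated, and their mRNAs end in a stem-loop instead of a poly(A) tail. Most variant genes are transcribed throughout the cell cycle, largely as ordinary poly(A) mRNAs. A cell that no longer divides therefore depends on variant genes to replace histones that are lost from chromatin. H3.3 fills gaps in transcribed and regulatory chromatin, H2A.Z flanks transcription start sites, macroH2A carries a large extra domain and is associated with silent chromatin, H2A.X is phosphorylated at DNA breaks, H1.0 is a linker histone of differentiated cells, and CENP-A marks centromeres. The RPE is such a tissue of long-lived cells.

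Among these genes the pairs that make H3.3 and H2A.Z stand out for their sequence. H3f3a and H3f3b both encode H3.3, and their coding sequences differed at 95 of 408 aligned bases without a single difference among 136 residues. H2afz and H2afv encode the H2A.Z proteins and differed at 80 of 384 aligned bases and at 3 of 128 residues. The table also lists processed copies, intronless sequences that arose from mRNA and lie elsewhere in the genome, and their counts bear on the level read for H3f3a and H2afz. The starts of the coding sequences are shown to make that visible. Each runs from base 1 to base 90, counted from the start codon, as given by the GENCODE transcripts of GRCm38, and capitals mark bases that differ from H3f3a in the first set and from H2afz in the second.
H3f3a: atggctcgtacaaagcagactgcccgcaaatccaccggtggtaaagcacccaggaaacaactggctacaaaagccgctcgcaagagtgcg
Gm10257: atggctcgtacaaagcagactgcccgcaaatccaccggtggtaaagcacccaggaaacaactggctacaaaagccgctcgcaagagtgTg
H3f3c: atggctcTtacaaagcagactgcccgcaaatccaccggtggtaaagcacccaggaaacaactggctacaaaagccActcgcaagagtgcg
H3f3b: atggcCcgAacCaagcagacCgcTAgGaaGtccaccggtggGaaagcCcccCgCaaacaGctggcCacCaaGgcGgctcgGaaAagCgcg
H2afz: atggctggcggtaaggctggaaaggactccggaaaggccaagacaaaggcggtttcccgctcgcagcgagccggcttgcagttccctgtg
Gm8203: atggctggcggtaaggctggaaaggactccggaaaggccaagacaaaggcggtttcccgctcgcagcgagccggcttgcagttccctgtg
H2afv: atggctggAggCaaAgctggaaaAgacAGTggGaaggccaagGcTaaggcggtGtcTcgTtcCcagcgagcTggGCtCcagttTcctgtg

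Within these 90 bases the copy Gm10257 differed from H3f3a at 1 base and the copy H3f3c at 2, while the parent paralog H3f3b differed at 20. The copy Gm8203 did not differ from H2afz, and H2afv differed at 19. A read from H3f3a can therefore match a copy far better than it can match H3f3b.

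To compare the genes with each other, each mean normalized count was divided by the length of the gene's longest protein coding transcript, and this value per kilobase is termed the level. Of the 10 variants, 7 lay above at least 85.4% of the ranked genes, H2afy2 and H2afx lay near the middle and Cenpa lay lower. The levels ran from 90.5 for Cenpa to 9583 for H3f3b, a span of 106 times. With merged exons as the length the span was 358 times, and with the mean transcript length it was 61.5 times and H2afx, not Cenpa, was lowest. Their median level was 1505, beside a median of 225 over the 17965 genes with a mean of at least 10 and a transcript length. Over the 70 listed clustered histone genes the median was 92.7. These were taken by symbol, as those that begin with Hist1h, Hist2h, Hist3h or Hist4h. They include the annotated pseudogenes Hist1h2al, Hist1h2aj and Hist3h2bb-ps, which stay in the clustered part of their class below.

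**Figure D1:**
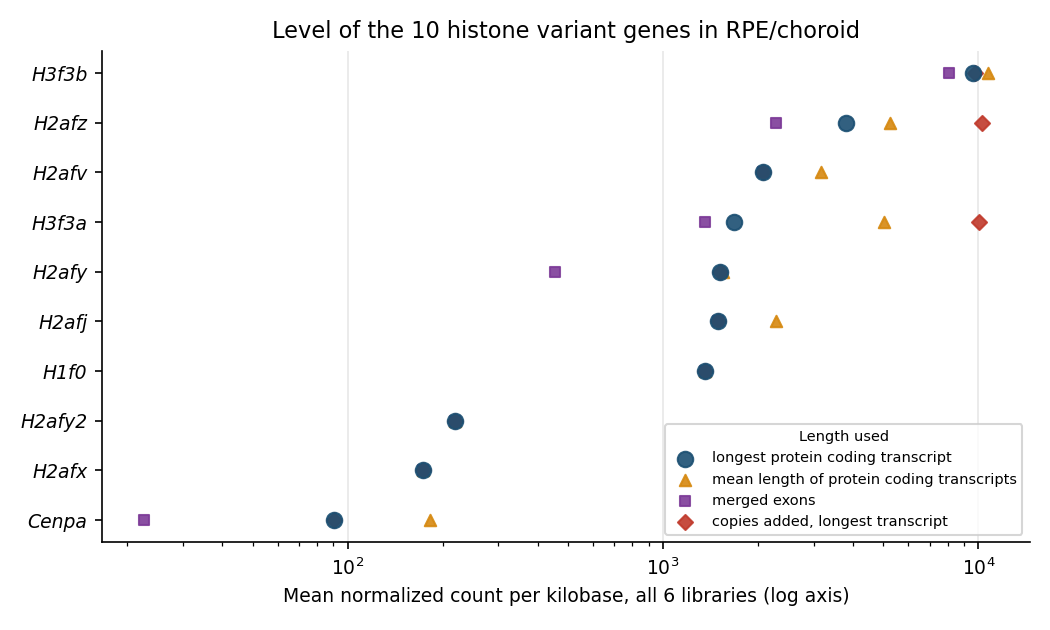
Level of each of the 10 variant genes (horizontal log axis, mean normalized count per kilobase over all 6 libraries), with a marker for each way of setting the length and a diamond for the level after the counts of processed copies were added. H3f3b lies highest at 9583 and Cenpa lowest at 90.5 by the longest transcript, and with copies added the diamonds of H2afz (10250) and H3f3a (10020) pass that of H3f3b (9727).

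H3f3b (ENSMUSG00000016559, GRCm38 chr11:116021912-116027962, minus strand, 6 exons in the longest transcript) had a mean normalized count of 24092. Its level of 9583 was higher than that of 97.8% of the ranked genes, and no clustered histone gene lay above it. As listed, H3f3b alone held 43.6% of the summed level of the 10 members, and with the processed copies described next added to their parents it held 26.3%.

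H3f3a (ENSMUSG00000060743, chr1:180800832-180813943, minus strand, 4 exons) encodes the same protein from another locus. Its mean count was 4776 and its level was 1681, higher than 87.9% of the ranked genes. As listed, H3f3b exceeded H3f3a 5.70 times by level and 5.04 times by count, and it held 85.1% of the level of the pair. With the mean transcript length the ratio was 2.14. With no value for a single library, the error of this ratio is not known.

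The ratio depends on where reads of H3f3a were counted. The table lists 13 processed copies that share at least 10% of their words of 50 bases with H3f3a, and their mean counts summed to 23684. They made up 83.2% of the count of H3f3a and its copies together, which was 28460. Of these copies, 7 had a mean of at least 100 and the other 6 lay between 0.984 and 51.0.

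The copy with the highest mean count was Gm10257, an intronless sequence at chr13:100946405-100946815 on the minus strand. Its count of 9385 was above that of H3f3a itself, and it differed from the H3f3a coding sequence at 4 of 411 bases. H3f3c, at chr2:119665626-119666036 on the minus strand, had a count of 5091 and also differed at 4 bases. These 2 copies were the only ones above H3f3a in count. The copies are much shorter than the H3f3a transcript of 2841 bases, so levels give another picture. H3f3c had a level of 12390, above the 1681 of H3f3a and the 9583 of H3f3b. With every copy divided by its own length, H3f3a and its copies had a joint level of 59380.

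Below them lay Gm6421 with 4413 counts, at chr13:117358212-117358620, and Gm12657 with 2068, at chr4:94599385-94599795 where it overlaps Plaa. H3f3a-ps2 had 1540 counts, H3f3a-ps1 on the X chromosome had 868 and Gm6749 had 257. From the H3f3a coding sequence these 5 copies differed at 5, 6, 5, 8 and 22 bases, in that order of naming. From H3f3b the 7 copies described differed at 97 to 108 bases. The one listed copy of H3f3b, Gm6485, had a count of 361 and added 1.48% to the joint count.

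With the counts of the copies added to their parent genes, H3f3a reached 28460 and H3f3b reached 24453, a ratio of 1.16 with H3f3a ahead. By the length of the parent transcripts, the levels were 10020 for H3f3a and 9727 for H3f3b. The order of the H3.3 genes thus turned over with the treatment of the copies, and H3f3b lost its first place among the members to H2afz and H3f3a. Whether the copies are transcribed or only received reads of H3f3a was not tested. Of the words of 50 bases pooled over the 7 annotated transcripts of H3f3a, 87.7% occurred in no other gene of the annotation. In H3f3b the pooled share was 93.1%. A share for single transcripts was not computed, and it can be lower where the coding part makes up more of the transcript.

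H3f3a also overlaps genes on the opposite strand, among them Gm17275 with a mean count of 126. The library kit marks strand, but the strand setting of the counting is not given in the sources used here.

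**Figure D2:**
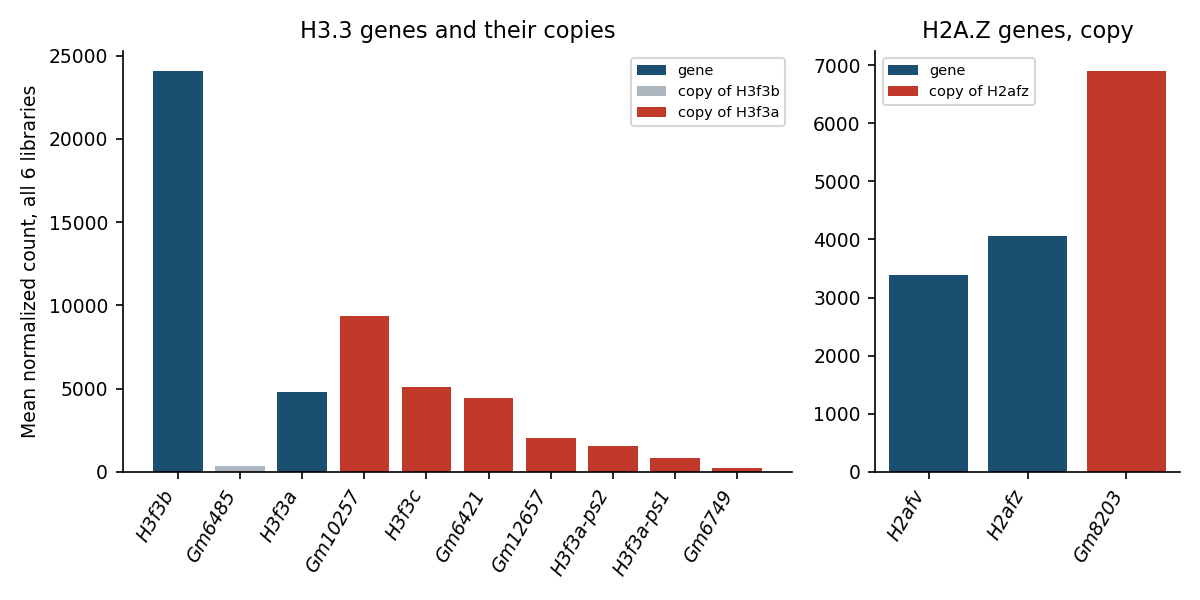
Mean normalized count over all 6 libraries (vertical linear axis from 0, 1 bar per gene) of the H3.3 genes on the left and the H2A.Z genes on the right, with their processed copies that had a mean of at least 100. The copies Gm10257 (9385) and H3f3c (5091) stand above H3f3a (4776), and Gm8203 (6901) stands above H2afz (4056).

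H2A.Z showed the same feature on a smaller scale. H2afz (ENSMUSG00000037894, chr3:137864487-137866922, plus strand, 5 exons) had a mean count of 4056 and the second highest level of the members, 3794. H2afv (ENSMUSG00000041126, chr11:6427229-6444443, minus strand, 5 exons) had a count of 3396 and a level of 2080. The level of H2afz was 1.82 times that of H2afv, with merged exons it was 1.10 times, and the counts differed 1.19 times. Both genes lay above 90% of the ranked genes, with percentiles of 94.4 and 90.03.

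The copy Gm8203, at chr6:116173737-116174123 on the plus strand where it overlaps Tmcc1, is 387 bases long and had no difference from the H2afz coding sequence. It differed from the H2afv coding sequence at 81 bases. Its count of 6901 exceeded that of H2afz, and the other listed copy, Gm13007, had a count of 5.02. Together these copies held 63.0% of the joint count of 10961, which placed H2afz at 3.23 times the count of H2afv. A read from the coding part of H2afz cannot be told apart from a read of Gm8203 by its sequence. H2afv had no such copy, and all of its words of 50 bases were its own, against 83.1% pooled over the 7 annotated transcripts of H2afz. The share in a single H2afz transcript was not computed and can be lower.

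The macroH2A genes were far apart in level. H2afy (ENSMUSG00000015937, chr13:56073619-56136361, minus strand, 9 exons), which encodes macroH2A1, had a count of 3092 and a level of 1511. H2afy2 (ENSMUSG00000020086, chr10:61738665-61784147, minus strand, 9 exons), which encodes macroH2A2, had a count of 476 and a level of 219. The level of H2afy was 6.91 times higher. It lay above 86.75% of the ranked genes, whereas H2afy2 lay near the middle, above 49.3% of them.

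The coding sequences of these genes were 70.1% identical and their proteins differed at 127 of 384 aligned positions. All words of 50 bases in H2afy and 93.3% of those in H2afy2 occurred in no other gene. H2afy2 overlaps Aifm2 on the opposite strand, a gene with a mean count of 1181. When the exons of all transcripts were merged into the length, the ratio of H2afy to H2afy2 was 2.08. H2afy has 8 annotated transcripts and H2afy2 has 1.

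H2afx and H2afj are single-exon genes that encode forms of H2A close to the canonical protein. H2afj (ENSMUSG00000060032, chr6:136808244-136810074, plus strand) had a count of 2745 and a level of 1499, above 86.7% of the ranked genes. Its protein differed from that of Hist2h2aa2, the clustered H2A gene with the highest level, at 7 of 130 aligned positions. The level of H2afj was 0.2004 times that of Hist2h2aa2, whose transcript is 528 bases long, and its count was 0.695 times that of Hist2h2aa2.

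H2afx (ENSMUSG00000049932, chr9:44334694-44336077, plus strand) had a count of 241 and a level of 174, above 44.5% of the ranked genes. It was the lowest of the 6 H2A variants, and the level of H2afj was 8.62 times higher. The proteins of H2afx and H2afj were 82.5% identical. Among genes that act with H2A.X, Mdc1, which binds its phosphorylated form, had a level of 66.4 and Atm, a kinase that phosphorylates it, had 58.6.

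H1f0 (ENSMUSG00000096210, chr15:79028450-79030504, plus strand, 1 exon), the linker histone gene H1.0, had a count of 2785 and a level of 1355. It lay above 85.4% of the ranked genes, and all of its words of 50 bases were its own. Its protein was 39.9% identical to that of Hist1h1c, the clustered H1 gene with the highest level. The level of H1f0 was 0.458 times that of Hist1h1c. Of the H1 genes outside the clusters, H1fx had a count of 19.7, H1foo and Hils1 had counts under 10, and H1fnt was listed at 0.

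Cenpa (ENSMUSG00000029177, chr5:30666777-30674830, plus strand, 5 exons) had the lowest value of the members, a count of 133 and a level of 90.5, above 32.2% of the ranked genes. The loading of CENP-A onto centromeres follows cell division. Of 10 genes that mark dividing cells, all 10 were listed, with a median level of 55.2 and values from 11.4 for Bub1 to 3162 for Pcna. Mki67, the defining marker, had a level of 15.9. Hjurp, the chaperone that loads CENP-A, had a level of 495, which was 5.47 times that of Cenpa.

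As listed and by the longest transcript, the order of the members had gaps of unequal size. H3f3b stood 2.53 times above H2afz, and H2afz stood 1.82 times above H2afv. From H2afv down to H1f0 each member stood 1.01 to 1.24 times above the next. H2afy and H2afj differed by 1.01 times, and without a spread between libraries their order cannot be told. The step from H1f0 to H2afy2 was the widest, at 6.20 times. With copies added the first places went to H2afz, H3f3a and H3f3b, and with merged exons the widest step was that from H2afx to Cenpa, at 7.68 times.

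Set within their protein classes, the variants made up very different shares. Of the summed level of H3 and CENP-A genes, H3f3b gave 78.9%, H3f3a 13.8%, Cenpa 0.745% and the 12 clustered H3 genes together 6.50%. With the copies added to their parents, H3f3b gave 47.2% and H3f3a 48.6% of that level, and by counts 45.3% and 52.75%. Of the H2A class, H2afz gave 19.1%, H2afv 10.5%, H2afy 7.62%, H2afj 7.56%, H2afy2 1.10% and H2afx 0.877%, which left 53.2% to the 20 clustered H2A genes. In the H1 class H1f0 gave 30.9%. By counts instead of levels the clustered H2A genes held 32.25% of their class. The variants held 46.8% of the H2A class by the longest transcript and 38.9% with merged exons. They held the majority by counts, with the mean transcript length (54.5%) and with copies added (59.9% by level). Beside only those clustered genes with at least 50% of their words found in no other gene, the share was 90.5%. That filter left 6 of 20 clustered H2A genes and dropped Hist2h2aa2, the one with the highest level. It dropped no H2A variant, so the variants' share could only rise.

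**Figure D3:**
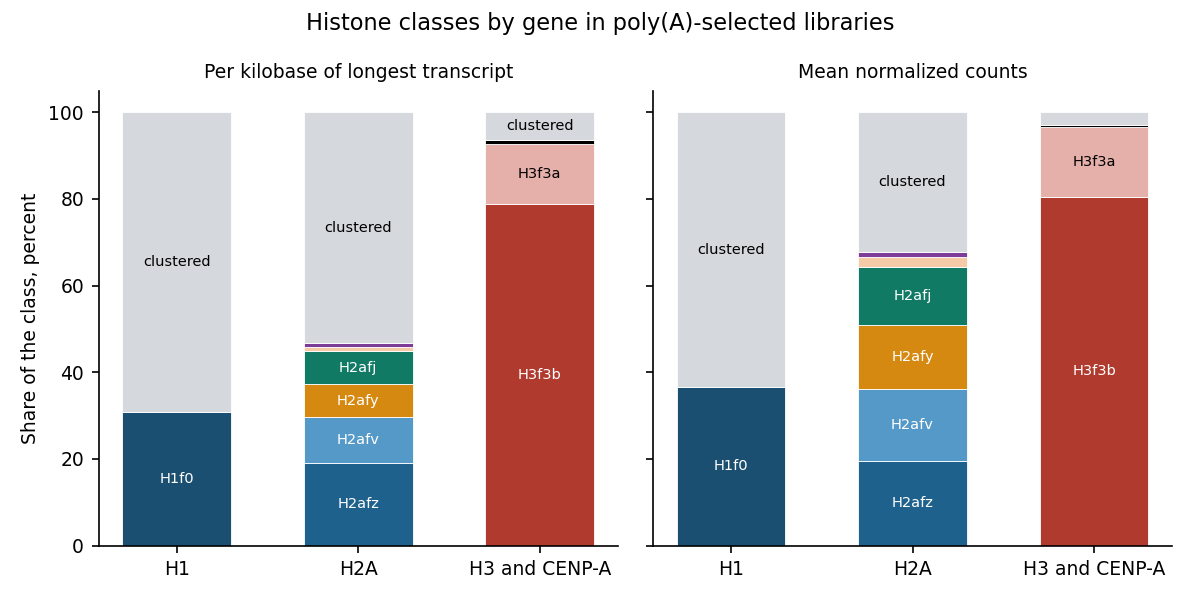
Share of each histone class held by each variant gene and by the clustered genes together (vertical axis, percent of the class total), by level per kilobase on the left and by mean normalized count on the right. Copies are not added: H3f3b as listed fills 78.9% of the H3 bar by level, against 47.2% with copies, and the clustered genes fill 53.2% of the H2A bar by level and 32.25% by count.

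Those shares describe poly(A)-enriched libraries, in which mRNAs that end in a stem-loop are not fully captured, and the amounts of protein were not measured. The ends of the transcripts differed between the variants and the clustered genes. A stem-loop of 16 bases was searched on the transcript strand: a stem of 6 bases that begins with GG and ends with T, a loop of 4 bases that begins with TTT, and the reverse complement of the stem. It was present in 44 of 70 clustered genes (62.9%). Some of the others, among them Hist1h2bl, Hist1h2bn and Hist1h4k, are annotated only to the stop codon, so no sequence past it could be searched. The stem-loop was present in 69 of 141767 annotated transcripts (0.0487%) and in 1 of the 10 variants. The exception was H2afx, shown here beside the clustered H1, H2A and H4 genes with the highest level in their class that carry it, with the stem in capitals and the loop in lower case.
H2afx: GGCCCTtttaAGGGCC
Hist1h1c: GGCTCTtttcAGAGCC
Hist2h2aa2: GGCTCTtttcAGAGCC
Hist1h4i: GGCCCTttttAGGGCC

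In H2afx the stem-loop lay 46 bases after the stop codon and 822 bases before the annotated end of the transcript, so the annotated mRNA runs on well past it. The poly(A) signal AATAAA was searched in the last 50 bases of each transcript on its own strand. Clustered genes annotated only to the stop codon again had no sequence past it to search. The signal was found in a transcript of 9 of the 10 variants, H2afx being the exception, in 15 of 70 clustered genes (21.4%) and in 69.6% of the 21901 genes with a protein coding transcript. Counted by protein coding transcript, 8 of the variants' 23 (34.8%) had it, beside 40.5% of all such transcripts. How much H2afx mRNA ends at the stem-loop was not tested.

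The clustered genes were nonetheless read in these libraries. The highest in each class were Hist1h2bc for H2B with a level of 7339, Hist2h2aa2 for H2A with 7480, Hist1h1c for H1 with 2958, Hist1h4i for H4 with 1356 and Hist2h3c2 for H3 with 253. As listed, H2afz was exceeded by 2 clustered genes, H2afv, H3f3a, H2afy and H2afj by 4, and H1f0 by 5. With copies added, H2afz (10250) and H3f3a (10020) lay above every clustered gene. H2afy2 was exceeded by 22, H2afx by 23 and Cenpa by 36 of the 70. None of the words of 50 bases in Hist2h2aa2 was its own, so its own value is uncertain. All of them also occur in Hist2h2aa1, another clustered H2A gene, listed at a count of 0.169. Reads moved between clustered H2A genes stay within the count of the class. How far the shares of the H2A class are affected was not tested. Among clustered genes only, those with the poly(A) signal had a median count of 224 and those without it a median of 39.8. The latter nonetheless held 64.9% of the clustered count and included the highest, Hist1h2bc. The paper describes Hist1h2bc as having a poly(A) mRNA in some differentiated cells. Its annotated transcript held no stem-loop either.

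**Figure D4:**
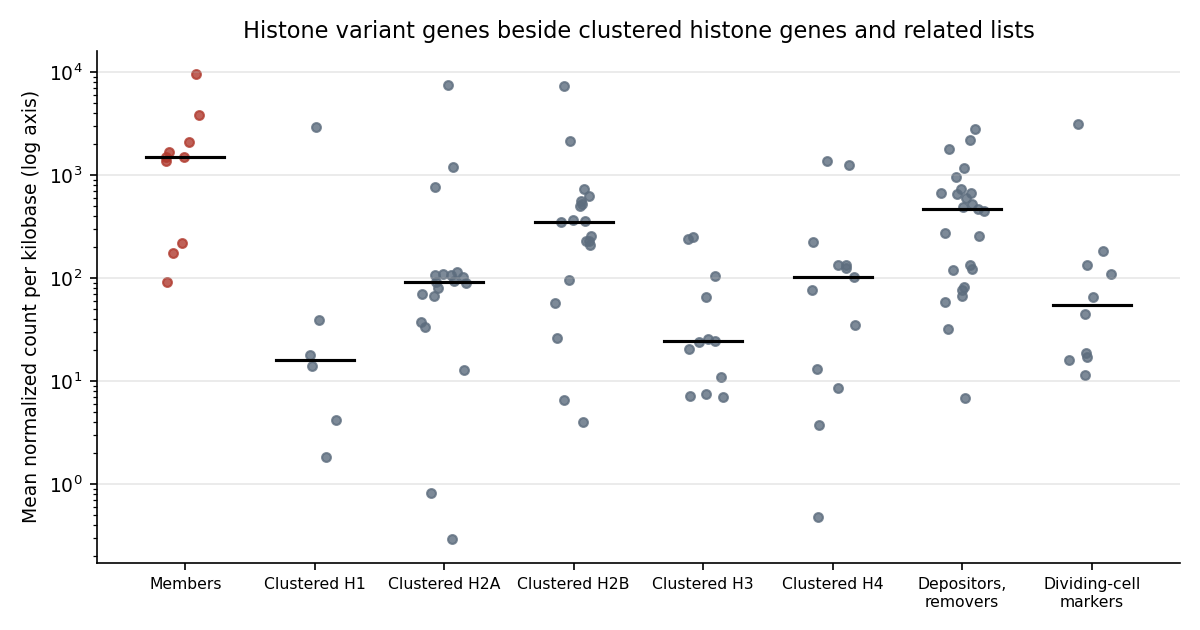
Level of single genes (vertical log axis, mean normalized count per kilobase over all 6 libraries; genes listed at 0 are not drawn) in the variants, the clustered histone genes of each class, the genes that deposit or remove variants, and markers of dividing cells, with a line at each list's median. The variants' median of 1505 lies above the 473 of the depositors and removers and the 55.2 of the dividing-cell markers.

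Variants enter and leave chromatin through dedicated chaperones and remodelers. Of 26 genes listed for this work as depositors, removers or readers, 25 were in the table, with a median level of 473, and 7 of the 10 variants lay above that median. For H3.3, all 8 genes were listed, from Cabin1, a partner of the HIRA chaperone, at 75.9 to Dek, an H3.3 chaperone, at 1792. As listed, without copies, H3f3a and H3f3b had a summed level of 11260.

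For H2A.Z, all 8 genes were listed, from Srcap, the ATPase that exchanges H2A for H2A.Z, at 81.2 to Anp32e, a chaperone that takes H2A.Z out, at 2171. The level of Anp32e was 1.04 times that of H2afv, an order that cannot be told without a spread. Its count of 7107 was above that of H2afz as listed and below the 10961 of H2afz with its copies. The enzyme on the list that binds macroH2A1 had a level of 730, and the 3 general histone carriers lay between 661 and 2814.

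Each level is an average over the cell types of a scraped tissue, and fewer cells of a type cannot be told apart from less RNA per cell. All 8 RPE markers were listed, from a level of 39.3 for Best1 to 335200 for Ttr, and the 4 pigment cell markers lay between 4287 and 116700. Markers of other tissues were present as well: rods (6 of 6) from 6053 to 30180, skeletal muscle (4 of 4) from 8136 to 39380, fibroblasts (4 of 4) from 1010 to 48150, macrophages (3 of 4) from 1217 to 92630, red cells (2 of 3) from 781 to 54140, lens (3 of 3) from 2381 to 6577, cones (3 of 3) from 523 to 1308 and choroidal endothelium (5 of 5) from 179 to 1909. Their part in the levels of the variants was not tested.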

How the data were processed

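RNA of RPE/choroid from 3 young and 3 aged mice had been sequenced in ribosomal RNA-depleted, poly(A)-enriched libraries. According to the methods, the authors trimmed the reads with BBDuk, mapped them with STAR to GRCm38, quantified transcripts with Sailfish, scaled them to total counts and compared the ages with DESeq2. Versions of STAR and DESeq2 and the strand setting are not given in the sources used here.

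The deposited table holds a signal, the authors' mean normalized count over all 6 libraries. It was the 1 column used besides the symbol. The other 5 columns hold the authors' own comparison of young and aged mice (log2 fold change, its standard error, Wald statistic, p-value and adjusted p-value) and were neither used nor printed, and 0 columns of single libraries were used. The planned age comparison, which needs values per library, was therefore not analysed here. The table lists 33924 genes, 8407 of them at 0, and the means sum to 40816668. Depth per library is unknown. Spacing of the lowest means gave 6 size factors from 0.959 to 1.06, with no assignment to libraries.

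Levels are mean normalized counts per kilobase of the longest protein coding transcript in the GENCODE annotation and transcripts of GRCm38, whereas the authors mapped to the transcripts of an earlier Ensembl release of that build. Of 18479 genes with a mean of at least 10, 17965 (97.2%) were matched by symbol or synonym. Own sequence is the percent of the 50-base words of a gene that occur nowhere in the transcripts of another gene. Processed copies were annotated processed pseudogenes that have at least 10% of their words in common with a member, and 17 were counted. Proteins were compared after translation of the annotated coding sequences and global alignment. A percentile is the share of ranked genes below a gene. Samples were grouped by title. No test was made, since no value has a spread. Genes named were the members, their copies, the highest clustered gene of each class, other unclustered variants, marker ranges and the ends of the lists of depositors and removers, and genes that overlap a member or copy. One result that this rule names is not reported here. Members and lists were chosen with earlier results of these data known. Alternatives were other lengths, other ranked sets, clustered genes with at least 50% own sequence, and the addition of copies. Scripts were tested on simulated data with planted values. Python 3.11.15, numpy 2.4.6, pandas 2.3.3, Biopython 1.88 and matplotlib 3.10.9 were used.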

Additional observations from a re-analysis of the deposited data

How the results depend on the processing

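Values below are in the order mean transcript length, merged exons, no division by length. The median level of the variants was 1917, 1359 and 2939, and 6, 4 and 5 of the 10 variants changed place. The ratio of H3f3b to H3f3a was 2.14, 5.94 and 5.04, that of H2afz to H2afv 1.66, 1.10 and 1.19, and that of H2afy to H2afy2 7.11, 2.08 and 6.50. The H3.3 share of the H3 class was 95.2%, 92.3% and 96.95%, and the variant share of the H2A class was 54.5%, 38.9% and 67.8%. H3f3b was first and H2afy2, H2afx and Cenpa were the last 3 under each of these lengths. Adding the processed copies was chosen after seeing the data. In the order parent length, own length of the copies, no division by length, 4, 3 and 6 variants changed place. The ratio of H3f3b to H3f3a became 0.971, 0.175 and 0.859, that of H2afz to H2afv 4.93, 10.4 and 3.23, and that of H2afy to H2afy2 6.903, 6.89 and 6.49. The H3.3 share became 96.2%, 98.9% and 98.3%, the H2A variant share 59.9%, 71.98% and 75.8%, and the median without length 2939. With clustered genes of at least 50% own sequence, of which 4 of 12 H3 and 6 of 20 H2A genes were left, the shares were 99.2% and 90.5%. This filter removed only clustered genes, so both shares could only rise. The median percentile was 86.7 in the report, 90.1 among all genes above 0 and 84.5 among genes with a mean of at least 50. No paired analysis was possible because values of single libraries were not analysed here, and for the same reason no mouse was left out and no replicate block was fitted.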
